A study of Mus musculus with 18 samples.

Results

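The transcriptome of epididymal white adipose tissue (eWAT) was compared between 5 Control f/f and 4 ParkinAdi mice, using 9 of the 10 libraries of the Parkin experiment and 9 of the 18 samples of the series. The libraries were selected on the measured values of Ces5a and Adam7: the fifth ParkinAdi library, called P2 here, was left out because they stood at 20.05 and 16.25 there on the regularized log (rlog) scale. This is a log2 scale on which uncertain differences between libraries are shrunk toward 0. Both genes belong to the epididymis, which adjoins the fat pad, and their values are given only as a description. Genes were kept if their mean over the 9 libraries reached log2 of 10, which gave 18960 of the 21756 genes of the deposited table.

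All mice carried the floxed Parkin allele and were fed a high-fat diet (HFD). ParkinAdi mice carried in addition a Cre under the control of the adiponectin promoter, so that recombination takes place in adipocytes. The labels name the tissue gonadal white adipose tissue, and the study's methods describe male mice on a C57BL/6 J background, about 4 to 6 months old. Because eWAT also holds macrophages, mesothelium, vessels and progenitors, a lower value in such bulk tissue can come from fewer cells of a type or from less RNA per cell, and these cannot be told apart.

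Parkin is an E3 ubiquitin ligase that PINK1 recruits to depolarized mitochondria, where it tags outer membrane proteins so that the organelle is taken up by autophagosomes and degraded in lysosomes. White adipocytes store triglyceride in a single large droplet and secrete hormones such as leptin and adiponectin. During HFD feeding the epididymal pad expands, and macrophages gather around dying adipocytes and take up their lipid.

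The Control f/f mice are called C1 to C5 and the ParkinAdi mice P1, P3, P4 and P5, and values are given in this order. The 8 adipocyte markers Adipoq, Plin1, Cidec, Fabp4, Lep, Lipe, Pnpla2 and Pparg lay between 11.77 and 19.91 in the 9 libraries, so that the defining markers of the labelled tissue were present in each.

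Epididymal transcripts were not absent from the 9 libraries. Adam7, which encodes a sperm-associated membrane protein, reached 10.15 in P5 and ranged from 6.51 to 8.20 elsewhere. The mean of the 11 epididymal genes tested was 8.45 in P5 and 7.70 in C5, against 6.0 to 6.55 in the other libraries and 11.77 in P2. Ces5a, a secreted carboxylesterase, lay between 5.59 and 8.45. The part of these transcripts in the results was not tested. For each gene list, the medians without a single mouse, P5 included, are given where they are the lowest or highest of the 9 omissions and lie over 1.5 times from the value of all mice.

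The libraries also fell into 2 sets by how their values depended on transcript length, read from the data and not from a label. The Spearman correlation across genes between exon length and the deviation from the mean of the 9 libraries was 0.441 to 0.523 in C1, C2, C3, P1 and P5 (the positive set) and −0.532 to −0.455 in C4, C5, P3 and P4 (the negative set). Every comparison was therefore made in 2 fits with limma's moderated test on the rlog values, with genotype alone and with the library set as an added term. Sequencing depth is unknown, since rlog values keep no counts.

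No gene was called between the genotypes at an adjusted p under 0.05 over all 18960 genes in either limma fit, so 0% were higher and 0% were lower. The smallest adjusted p was 0.963 with genotype alone and 0.263 with the library set term. With genotype alone, 279 genes (1.47%) were higher and 617 (3.25%) were lower in ParkinAdi eWAT at an unadjusted p under 0.05, together 896 where 948 lie under that value for uniform p-values. With the library set term, 912 (4.81%) were higher and 1387 (7.32%) were lower. All 279 and all 617 genes were again under 0.05 in the second fit. Limma with library weights also called 0 genes in each direction in both fits. The median difference of all genes was 0.02 in both, and 91 genes (0.48%) had every ParkinAdi value above every Control f/f value and 222 (1.17%) every value below. With 5 and 4 mice, groups can separate fully by random order alone, and the number expected from this was not computed. Lack of overlap is therefore given as a description and not as support for a difference. Within both library sets, 477 genes (2.52%) were separated upward and 740 (3.9%) downward.

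**Figure D1:**
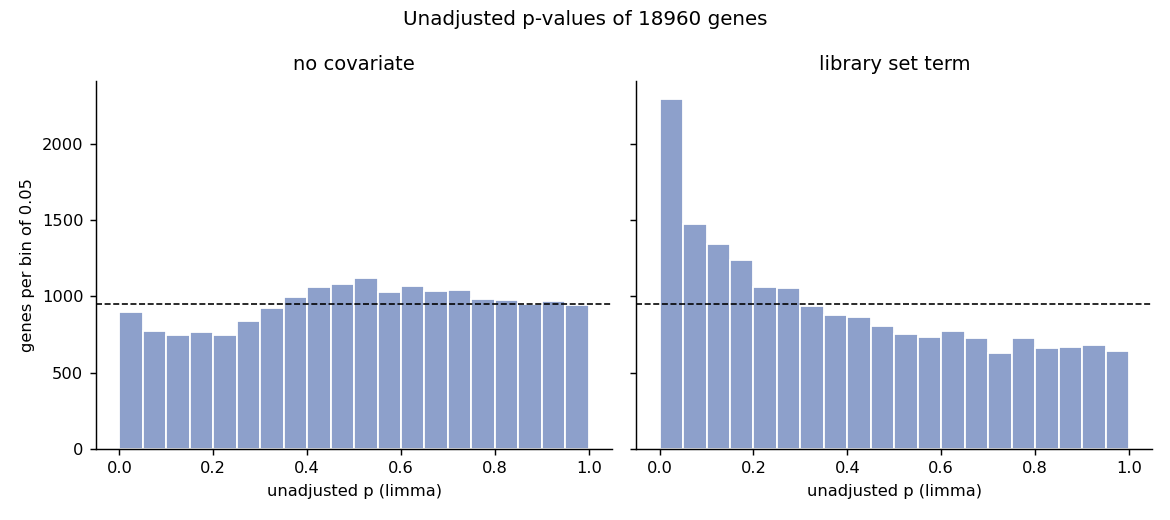
Unadjusted p-values of the 18960 genes from limma with genotype alone (left) and with the library set term (right); the x axis is the p-value, the bars count genes per bin of 0.05, and the dashed line marks 948 genes per bin. The lowest bin holds 896 genes on the left and 2299 on the right.

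These counts depended on single mice. With genotype alone, the counts at an unadjusted p under 0.05 ranged from 147 higher and 343 lower without P4 to 394 higher and 782 lower without C4, with 155 and 370 without C2 and 148 and 444 without C5. With the library set term, 430 and 824 were reached without C5, 546 and 869 without P4, and 1654 and 1785 without C3. Leaving out Control f/f mouse C3 also gave calls at an adjusted p under 0.05 in limma: 4 genes were lower with genotype alone (Vsig8, Mmp12, F7 and Gpnmb), and with the set term 97 genes (0.512%) were higher and 365 (1.93%) lower. C3 was the Control f/f mouse whose lysosomal, macrophage and cholesterol synthesis genes lay nearest to those of ParkinAdi mice, so removing it removes the control most like the other genotype. Its calls are given here as values under 1 of 9 omissions.

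The gene with the largest negative difference among those with the smallest p was Vsig8, a membrane protein with immunoglobulin domains. It stood at 7.06, 6.87, 5.11, 7.29 and 6.70 in Control f/f and at 4.97, 4.78, 4.41 and 4.64 in ParkinAdi mice (−1.91, SE 0.40). The groups did not overlap, although C3 came close to P1. Zfyve28, an endosomal protein with a FYVE domain, was between 7.95 and 8.09 in Control f/f mice and at 7.40, 7.58, 7.16 and 7.46 in ParkinAdi mice (−0.60, SE 0.13). Dglucy, the mitochondrial D-glutamate cyclase, was at 9.55, 9.81, 9.67, 9.70 and 9.82 against 9.16, 9.27, 9.10 and 9.12 (−0.55, SE 0.11, or SE 0.08 with the set term). For both genes the Control f/f values lay close together and every ParkinAdi value was below them, in each library set.

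Of 32 genes of iron and heme handling, 18 were above and 14 below 0 (median 0.04, and −0.02 without C1). By an unadjusted p of under 0.05, 1 was higher and 4 lower, beside 1.47% and 3.25% of all genes, and 2 of the lower ones act on heme. Hmox1, the inducible heme oxygenase, was at 10.69, 10.74, 10.25, 10.39 and 10.80 in Control f/f and at 9.91, 10.01, 9.91 and 9.83 in ParkinAdi mice (−0.66, SE 0.14), with differences of −0.69 and −0.63 within the sets. Hpx, the heme carrier hemopexin, differed by −2.0 (SE 0.54), but C3 (4.80) lay below P3 (4.90) and P4 (4.95). The Control f/f values of Hpx ran from 4.80 to 7.96, a wider spread than the 4.51 to 4.95 of ParkinAdi mice.

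A further group of the lower genes lay on the X chromosome. Fmr1nb, the neighbour of Fmr1 (chrX:68761839-68804567 on GRCm38), was at 3.75, 4.50, 4.45, 4.63 and 4.87 in Control f/f and at 3.34, 3.20, 3.17 and 2.83 in ParkinAdi mice (−1.31, SE 0.24). Its ParkinAdi mean (3.14) lay under log2 of 10, so this gene passed the filter only through its Control f/f values. Gm14699, a processed pseudogene that lies inside the span of Fmr1nb (chrX:68782640-68782867), differed by −1.15 (SE 0.22). The sources used here do not say whether counting used strand, so reads of these overlapping genes may not be separate. Fgf13, an intracellular protein of the fibroblast growth factor family that binds sodium channels (chrX:59062145-59568071), was at 10.74, 11.02, 9.83, 10.03 and 10.71 against 9.53, 8.93, 9.29 and 9.57 (−1.14, SE 0.26). None of the 3 genes overlapped between genotypes, and all 3 were lower in both library sets. Because their small p in the same mice picked them, this adds no support. On the whole X chromosome 25 of 736 genes (3.4%) were lower and 8 (1.09%) higher at an unadjusted p under 0.05, near the shares of all genes.

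The other genes with the smallest p in this direction included secreted proteins and their inhibitors. Il1rn, which blocks the IL-1 receptor, stood at 8.99, 8.5, 6.90, 7.64 and 8.55 against 6.76, 6.33, 6.63 and 6.33 (−1.60, SE 0.38), with C3 again the lowest control. Serpind1, heparin cofactor II, differed by −1.03 (SE 0.24), and Sdc1, the heparan sulfate proteoglycan syndecan-1, by −0.57 (SE 0.14). The ParkinAdi mean of Serpind1 (3.09) lay under log2 of 10, so it too passed the filter only through its Control f/f values. Among cell surface and adhesion genes, the desmosomal cadherin Dsg1a differed by −1.61 (SE 0.36). None of these 4 genes overlapped between the groups. Eya1, a transcriptional coactivator with phosphatase activity, differed by −1.28 (SE 0.30), Fam198b by −0.72 (SE 0.17) and Car9, a carbonic anhydrase induced in hypoxia, by −0.85 (SE 0.20), again without overlap. Ephx1, the microsomal epoxide hydrolase, had a smaller difference of −0.47 (SE 0.13) that was also without overlap. Dock8, an exchange factor for Cdc42 in leukocytes, overlapped between genotypes over all 9 mice (P5 at 10.21 against C4 at 9.99) but not within either set (−1.26 and −1.22), and had the smallest p of the fit with the set term (−1.24, SE 0.18, adjusted p = 0.263 in limma).

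**Figure D2:**
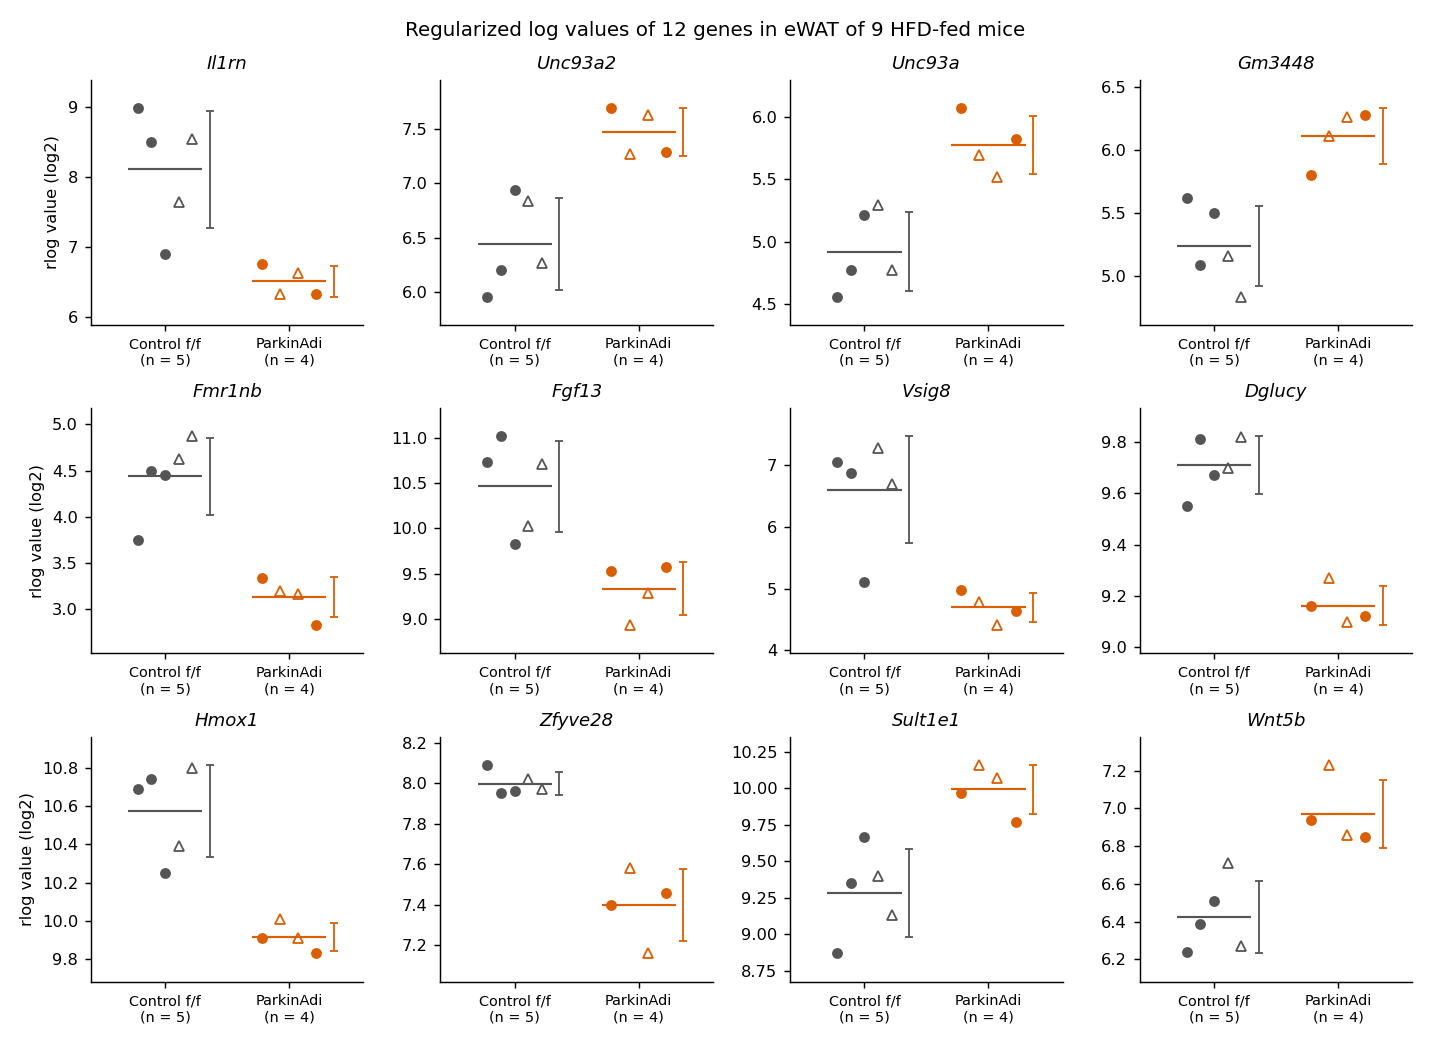
rlog values (y axis, log2) of 12 genes in each library by genotype (x axis); circles mark the positive and open triangles the negative library set, the line is the group mean and the bar beside it ± 1 SD. For each of the 12 genes the 4 ParkinAdi values lie outside the range of the 5 Control f/f values, and y axes do not start at 0.

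Fewer genes lay at the top of the list of higher values, and their levels were mostly low. Sult1e1, the estrogen sulfotransferase, was an exception in its level. Its values were 8.87, 9.35, 9.67, 9.40 and 9.13 in Control f/f and 9.97, 10.16, 10.07 and 9.77 in ParkinAdi mice (0.71, SE 0.17), without overlap. Gchfr, the feedback regulator of GTP cyclohydrolase I in tetrahydrobiopterin synthesis, was at 5.76, 6.89, 5.50, 5.98 and 5.53 against 7.65, 9.21, 6.93 and 7.34 (1.85, SE 0.45). The groups did not overlap, but the highest control (C2) lay just under the lowest ParkinAdi mouse (P4), and P3 lay far above the rest. Rassf6, a protein with a Ras association domain, differed by 1.12 (SE 0.26) and Lypd1, a member of the Ly6 family, by 0.69 (SE 0.17), both without overlap. The zinc finger genes Zfp872 and Zfp879 differed by 0.62 (SE 0.17) and 0.64 (SE 0.17), without overlap. Hist1h2al, annotated as a processed pseudogene of histone H2A, had a larger difference than these (1.99, SE 0.45), but C3 (6.32) lay above P5 (5.99).

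Signalling and metabolic genes followed in the same direction. Wnt5b, a Wnt ligand, was at 6.24, 6.39, 6.51, 6.71 and 6.27 in Control f/f and at 6.94, 7.23, 6.86 and 6.85 in ParkinAdi mice (0.54, SE 0.16). Gpd2, the mitochondrial glycerol 3-phosphate dehydrogenase, was at 9.91, 9.87, 10.09, 9.77 and 9.63 against 10.5, 10.11, 10.10 and 10.23 (0.38, SE 0.14). Neither gene overlapped, but Gpd2 in P4 was barely above C3. Net1, an exchange factor for RhoA, differed by 0.54 (SE 0.15) without overlap.

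Several genes, Gpd2 and Net1 among them, entered the leading genes only with the library set term. Angpt4, an angiopoietin, differed by 0.76 (SE 0.14), the microfibril protein Mfap4 by 0.63 (SE 0.12) and Nrip1, the nuclear receptor corepressor RIP140, by 0.44 (SE 0.10). Angpt4, Mfap4 and Nrip1 overlapped between genotypes over the 9 mice and were separated within each set. Genes picked by a small p in the fit with the set term tend to separate in this way. Without the set term their standard errors were larger, 0.32, 0.23 and 0.28.

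Among the leading genes with higher values, 3 lay on chromosome 17 and belonged to families of similar copies. Unc93a2 was at 5.96, 6.20, 6.94, 6.84 and 6.27 in Control f/f and at 7.69, 7.27, 7.63 and 7.29 in ParkinAdi mice (1.03, SE 0.23). Unc93a, its paralog, was at 4.56, 4.77, 5.21, 5.29 and 4.77 against 6.07, 5.69, 5.52 and 5.82 (0.86, SE 0.21). Gm3448, a predicted protein-coding gene, was at 5.62, 5.09, 5.50, 5.16 and 4.84 against 5.80, 6.11, 6.26 and 6.28 (0.87, SE 0.20). No value of these genes overlapped between genotypes, and all were higher within both library sets. In the left-out library P2, Unc93a2 (6.97), Unc93a (5.63) and Gm3448 (6.61) were also above every Control f/f value, Unc93a2 barely so. P2 did not follow the other ParkinAdi mice in every gene. Eya1 (7.11), Car9 (5.16), Osgin1 (8.04) and Acta2 (14.17), given in this report as lower without overlap, were among those above every Control f/f value in P2. Unc93a and Unc93a2 are close paralogs, and Gm3448 belongs to a family of predicted genes with Gm3435, so that reads could be shared between them.

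Across chromosomes, chromosome 19 and the mitochondrial genome had the most unequal directions. On chromosome 19, 34 of 576 genes (5.9%) were lower and 1 (0.174%) higher at an unadjusted p under 0.05, among them Dock8 and the lysosomal transporter gene Slc15a3 (−1.25, SE 0.33). On the mitochondrial genome, 5 of 24 genes (20.8%) were higher and 0 lower. Within 1 Mb of Adipoq, whose promoter drives the Cre, 1 of 28 genes (3.57%) was higher at an unadjusted p under 0.05, 6330408M09Rik (0.76, SE 0.23). The shares of all genes were 1.47% higher and 3.25% lower.

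Lysosomal genes had lower values in ParkinAdi eWAT. Lysosomes degrade what autophagy delivers, and in fat most of their gene products are found in both adipocytes and macrophages. Of 32 genes of lysosomal enzymes, membrane proteins and proton pump subunits, 29 lay below 0, their median being −0.32, beside a median of 0.02 for all genes. Under an unadjusted p of 0.05 lay 10 lower genes and 0 higher ones, beside 3.25% of all genes lower, and with the library set term 21 were lower, beside 7.32%. The mean of the list was 11.97, 11.96, 11.61, 11.87 and 11.97 in Control f/f and 11.60, 11.56, 11.52 and 11.44 in ParkinAdi mice. Those means did not overlap, but C3 and P1 lay next to each other. The median was −0.24 in the positive and −0.35 in the negative set, and ranged from −0.38 without C3 to −0.27 without P5.

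Among the lysosomal genes, Lipa, the acid lipase that hydrolyses cholesteryl esters and triglycerides, was at 12.67, 12.35, 11.62, 11.89 and 12.17 in Control f/f and at 11.50, 11.29, 11.50 and 11.39 in ParkinAdi mice (−0.72, SE 0.20). Atp6v1b2, a subunit of the proton pump, differed by −0.54 (SE 0.14). Neither of these overlapped. Ctss, the cathepsin of antigen-presenting cells, differed by −1.01 (SE 0.26) and overlapped. Of the 33 macrophage markers, 28 were below 0 with a median of −0.40 (−0.60 without P3), and 14 were lower at an unadjusted p under 0.05, beside 3.25% of all genes. Their list mean was 10.77, 10.52, 9.95, 10.37 and 10.48 in Control f/f and 9.89, 10.10, 9.71 and 9.66 in ParkinAdi mice, so that C3 lay below P3. Cd68, a lysosomal glycoprotein of macrophages, differed by −1.14 (SE 0.23) without overlap. Only 2 lysosomal genes are also on the macrophage list, and of the other 30, 27 were below 0 with a median of −0.30. Genes outside the macrophage list can also be expressed in macrophages, and the part of macrophages in the lysosomal values was not tested.

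Promoter sequences of the lysosomal genes are shown because many of them share an element that the transcription factor TFEB is known to bind, an extended E-box within TCACGTGA. The RefSeq promoter table (GRCm38.p6, 250 bases before to 50 after the start site) held 25 of the 32 genes. The letters TCACGTGA, which are their own reverse complement, occurred in 5 of these (20%), beside 237 of 11836 promoters of tested genes (2%). In these windows, read 5′ to 3′ on the strand of the gene and cut at the start site, the element is in capitals.
Ctsd, cathepsin D (chr7:142387889-142387956, minus strand): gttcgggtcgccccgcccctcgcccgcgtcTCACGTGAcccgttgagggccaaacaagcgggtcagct
Ctsa, the protective protein cathepsin A (chr2:164833730-164833772, plus strand): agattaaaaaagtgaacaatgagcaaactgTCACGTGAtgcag
Atp6v1a, a catalytic subunit of the proton pump (chr16:44139354-44139421, minus strand): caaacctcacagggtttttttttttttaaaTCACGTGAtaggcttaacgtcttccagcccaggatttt
Mcoln1, the calcium channel mucolipin 1 (chr8:3500443-3500510, plus strand): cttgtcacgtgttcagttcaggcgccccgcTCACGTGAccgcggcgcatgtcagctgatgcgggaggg
Its first base lies at −99, −13, −132 and −46 from the start site in these promoters, in this order. The differences of these genes were −0.37, −0.28, −0.32 and −0.14, and that of Atp6v0d1, the fifth gene with the element, was −0.08. A match describes the sequence and not binding in this tissue.

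Genes linked to the expansion of the fat pad mostly lay below 0. Of 22 such genes, 19 lay below 0, the median being −0.46 (−0.42 with the set term), and 7 were lower and 0 higher at an unadjusted p under 0.05, beside 3.25% and 1.47% of all genes. The list mean was 11.72, 11.92, 11.51, 11.53 and 11.82 in Control f/f and 11.41, 11.23, 11.22 and 11.31 in ParkinAdi mice, without overlap. Mest, a marker of adipose tissue expansion, was at 13.87, 14.29, 13.72, 13.76 and 14.27 against 13.67, 13.11, 13.55 and 13.45 (−0.54, SE 0.19), without overlap but with C3 close to P1. Sfrp5, a secreted Wnt inhibitor of adipocytes, differed by −0.64 (SE 0.19), Lep, which encodes leptin, by −0.79 (SE 0.25) and the transcription factor gene Egr2 by −1.02 (SE 0.36), each with overlap. For Lep the Control f/f values ran from 16.19 to 17.06 and the ParkinAdi values were 16.25, 15.63, 15.49 and 15.76, so that P1 alone lay within the control range. Sfrp5 differed by −0.30 in the positive set and by −1.08 in the negative set.

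Of 25 genes of adipocyte identity, 17 were above 0, with a median of 0.18 (0.13 with the set term, and 0.04 without C1). By an unadjusted p of under 0.05, 1 was higher and 1 lower, beside 1.47% and 3.25% of all genes. Adrb3, the β3-adrenergic receptor of adipocytes, differed by 0.77 (SE 0.32) and Cfd, the adipocyte serine protease adipsin, by 1.14 (SE 0.52), both with overlap. The values of Adrb3 in C1 (11.68) and C2 (11.89) lay well below those of the other 7 mice (12.52 to 13.52). The 28 genes of lipogenesis had a median of 0.04 (−0.02 without C1, 0.10 without P4), with 0 higher and 1 lower by an unadjusted p of under 0.05, and the 27 genes of lipolysis and the lipid droplet had a median of −0.001 (−0.08 without C1, 0.04 without C4), with 1 of each. Plin2, which coats droplets of many cell types, differed by −0.57 (SE 0.20).

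Cholesterol synthesis genes mostly lay below 0. Of 24 genes of this pathway and its control by SREBP2, 22 lay below 0, their median being −0.18 (−0.21 and −0.22 within the sets). At an unadjusted p under 0.05, 5 were lower and 0 higher, beside 3.25% and 1.47% of all genes. Hmgcs1, the synthase ahead of HMG-CoA reductase, was at 12.76, 12.96, 12.24, 12.43 and 12.79 in Control f/f and at 12.23, 12.10, 12.05 and 12.02 in ParkinAdi mice (−0.53, SE 0.16). The groups did not overlap, although C3 and P1 were nearly equal. Dhcr7, the reductase of the last step to cholesterol, differed by −0.67 (SE 0.23) and the lanosterol synthase Lss by −0.50 (SE 0.23), each with overlap. The list mean of C3 (9.40) was the lowest of the Control f/f mice (9.40 to 9.87) and lay within the ParkinAdi range of 9.34 to 9.55.

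In lipid transport, 18 of 23 genes were below 0 (median −0.20, −0.31 without P5 and −0.11 without P3), and Pltp, the phospholipid transfer protein, was at 12.66, 12.48, 11.78, 11.56 and 12.03 in Control f/f and at 11.50, 11.02, 10.60 and 11.54 in ParkinAdi mice (−0.94, SE 0.27). Its groups did not overlap, with P5 just below C4. Fabp7, a fatty acid binding protein of the nervous system, differed by −0.93 (SE 0.34) at values of at most 5.37. In glycolysis, 17 of 23 genes were below 0 with a median of −0.12 (−0.19 without C3). The hexokinase gene Hk3, which is found in myeloid cells, differed by −1.25 (SE 0.35), the liver-type phosphofructokinase gene Pfkl by −0.46 (SE 0.15), and Pfkfb4, which sets fructose 2,6-bisphosphate, by −0.66 (SE 0.18). The first 2 did not overlap. Pdk4, the kinase that inactivates pyruvate dehydrogenase, differed by −0.75 (SE 0.27).

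The mitochondrial transcripts on mitochondrial DNA had higher values, and the nuclear respiratory genes followed the library sets. All 13 mtDNA protein genes had a difference above 0 with a median of 0.41 (0.40 with the set term). Beside 1.47% and 3.25% of all genes, 2 of the 13 were higher and 0 lower by an unadjusted p of under 0.05. Their list mean was 15.92, 16.15, 16.17, 15.95 and 16.11 in Control f/f and 16.21, 16.52, 16.83 and 16.30 in ParkinAdi mice, without overlap. However, C3 and P1 lay next to each other, and the left-out ParkinAdi library P2 (16.07) lay within the Control f/f range. The median was 0.19 in the positive and 0.59 in the negative set, and 0.19 after quantile normalization. The median exon length of these genes was 784 bases, against 3489 for all genes. With the length trend removed, all 13 stayed above 0 and the median was 0.26, or 0.31 with the set term added. mt-Nd6, a complex I subunit on the light strand, differed by 0.41 (SE 0.18) and mt-Atp8, an ATP synthase subunit, by 0.58 (SE 0.26), both with overlap. The tRNA gene mt-Tp differed by 1.0 (SE 0.35).

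All 37 nuclear genes of complex I and all 39 of complexes II to V were above 0, with medians of 0.27 and 0.24, and so were all 80 genes of the cytosolic ribosome (0.26) and 71 of 74 of the mitochondrial ribosome (0.17), but 0 of these genes was under an unadjusted p of 0.05 in limma with genotype alone (1, 1, 2 and 3 with the set term, all higher). Of all genes, 1.47% were higher under that value with genotype alone and 4.81% with the set term. With the library set term the medians were 0.15, 0.15, 0.15 and 0.09. Within the positive set they were 0.09, 0.05, −0.02 and 0.04, so that the cytosolic ribosome lay below 0 there. The list mean of the cytosolic ribosome was 10.66, 10.98 and 10.98 in Control f/f and 10.96 and 10.75 in ParkinAdi mice of the positive set, and 11.84 and 11.58 against 12.19 and 12.02 in the negative set. The sets differed by more than the genotypes. Single mice moved these medians as well, to 0.05 (complex I) and 0.04 (complexes II to V) without P4, to 0.03 (cytosolic ribosome) and 0.005 (mitochondrial ribosome) without P3, and, without P5, to 0.505, 0.497, 0.504 and 0.361 in the order above. The 4 lists hold short transcripts, with median exon lengths of 1569, 1831, 1754 and 2541 bases against 3489 for all genes, and 3 of 5 Control f/f but 2 of 4 ParkinAdi mice belonged to the positive set.

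The genes that act with Parkin differed little. Of 31 genes of mitophagy and autophagy, 15 were above and 16 below 0 (median −0.02, −0.07 without P1 and −0.001 without C3). At an unadjusted p under 0.05, 1 was lower, beside 3.25% of all genes: Optn (−0.41, SE 0.15), which encodes the autophagy receptor optineurin. Of 20 genes of mitochondrial biogenesis, 14 were above 0 (median 0.06, and 0.01 without P5). At an unadjusted p under 0.05, 0 were higher and 0 lower, beside 1.47% and 3.25% of all genes. Ppargc1a, the coactivator Pgc1α, differed by 0.22 (SE 0.36) and Tfam, the mtDNA packaging factor, by 0.15 (SE 0.14). Nqo1, the quinone reductase that the study examined beside Parkin, was at 7.46, 7.77, 7.99, 8.22 and 8.10 in Control f/f and at 7.76, 8.13, 8.36 and 7.67 in ParkinAdi mice (0.07, SE 0.20), and its sign turned to −0.04 without C1, −0.05 without P4 and −0.02 in the positive set.

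Antioxidant genes lay on both sides of 0. The 34 genes of NRF2 targets and glutathione metabolism had a median of 0.01 (−0.06 without P4, 0.13 without P5), with 18 above and 16 below 0. By an unadjusted p of under 0.05, 1 was higher and 5 lower, beside 1.47% and 3.25% of all genes. Besides Hmox1, the lower ones included Srxn1, a sulfiredoxin (−0.41, SE 0.14), Sod3, the extracellular superoxide dismutase (−0.51, SE 0.15) and Osgin1, an oxidative stress growth inhibitor (−0.49, SE 0.15). Sod3 and Osgin1 did not overlap. Gsta4, a glutathione transferase that acts on lipid aldehydes, differed by 0.75 (SE 0.30).

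Cell cycle, p53 and immediate early genes were mostly below 0. Of 33 cell cycle genes, 30 were below 0 with a median of −0.38. At an unadjusted p under 0.05, 4 were lower and 0 higher, beside 3.25% and 1.47% of all genes. The 4 included Ccnb2, cyclin B2 (−0.67, SE 0.20, no overlap), and the transcription factor gene E2f1 (−0.38, SE 0.16). The mean of the cell cycle list was 7.21 in C1, 6.69 in C2 and 6.24 to 6.45 in C3 to C5, against 5.98 to 6.37 in ParkinAdi mice, and the median was −0.23 without C1. Of 21 p53 targets, 18 were below 0 (median −0.16). Cdkn1a, the cyclin-dependent kinase inhibitor p21, was at 10.67, 10.81, 10.21, 10.57 and 11.27 against 10.19, 10.16, 9.58 and 9.71 (−0.80, SE 0.22), without overlap. Of 28 immediate early genes, 19 were below 0 (median −0.17, and −0.11 without P4). Fos was at 9.47, 8.59, 7.99, 8.22 and 8.45 against 7.56, 7.15, 7.16 and 7.64 (−1.17, SE 0.28), without overlap, and Atf3, a stress-induced transcription factor gene, differed by −1.28 (SE 0.35), with C3 (7.97) within the ParkinAdi range.

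Of 20 clock genes, 15 were above 0. Their median was 0.16 over the 9 mice, but 0.005 without P5, the mouse with the most epididymal transcripts, and 0.31 without P3. The part of epididymal transcripts in this median was not tested. With genotype alone, 1 was higher and 1 lower by an unadjusted p of under 0.05, beside 1.47% and 3.25% of all genes. With the library set term 8 were higher and 2 lower, beside 4.81% and 7.32% of all genes. Dbp, a clock output transcription factor, differed by 0.44 (SE 0.18), Nr1d2, the repressor REV-ERBβ, by 0.29 (SE 0.18) and Hlf by 0.33 (SE 0.22), while Nfil3, a repressor that opposes Dbp, differed by −0.43 (SE 0.17). The sources used here do not give the time of day of harvest.

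Markers of the mesothelium, the cell layer on the surface of the pad, were above 0 in 23 of 23 genes with a median of 0.71, with 9 higher and 0 lower under an unadjusted p of 0.05, beside 1.47% and 3.25% of all genes. The list mean was 8.04, 8.46, 8.13, 8.82 and 7.55 in Control f/f and 8.57, 9.78, 8.75 and 8.85 in ParkinAdi mice, so that C4 lay within the ParkinAdi range and P3 was far above the other 8 mice. Slpi, a secreted protease inhibitor, differed by 1.38 (SE 0.49), the keratin gene Krt7 by 1.18 (SE 0.44) and the mucin gene Muc16 by 0.85 (SE 0.33), each with overlap. The median was 0.54 without C5 and 0.90 without C2. Of 11 genes of other epithelia, 10 were above 0 (median 0.29, −0.13 without P5 and 0.68 without P3).

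The remaining cell types gave small or uneven values. Of 26 endothelial markers, 20 were below 0 (median −0.11, −0.22 without P5 and −0.03 without P4). Of these markers, 0 passed an unadjusted p of 0.05, beside 1.47% of all genes higher and 3.25% lower. In mural cells 8 of 17 were above 0, although Acta2, smooth muscle actin, differed by −0.67 (SE 0.19) without overlap. The 21 T and NK cell genes had a median of −0.04, which was −0.35 in the positive and 0.23 in the negative set, −0.29 without P3 and 0.08 without P5. By an unadjusted p of under 0.05, 1 was higher and 2 lower, beside 1.47% and 3.25% of all genes. Trac, the constant part of the T cell receptor α chain, differed by −1.08 (SE 0.27) and Klrb1c, the NK cell receptor NK1.1, by 0.70 (SE 0.28). Of 14 neutrophil and mast cell genes, 10 were above 0 (median 0.23), with 2 higher and 3 lower by the same threshold. Fcer1a, a chain of the IgE receptor on mast cells and basophils, differed by 0.88 (SE 0.25). Its Control f/f mean (3.26) lay under log2 of 10, so it passed the filter only through its ParkinAdi values. The neutrophil genes Csf3r, the G-CSF receptor, Ltf, lactoferrin, and S100a8, a calcium-binding alarmin, differed by −0.84 (SE 0.27), −0.84 (SE 0.32) and −1.14 (SE 0.50). Ltf was at most 5.66 in the 9 mice (C5) but stood at 10.43 in the left-out library P2. Of 12 liver genes, 10 were below 0 (median −0.77, but −0.07 in the positive and −1.62 in the negative set, and −0.50 without C5), and their list mean was 8.88 in C4 and 8.85 in C5 against 7.04 to 7.85 in the other 7 mice. Lbp, the lipopolysaccharide binding protein of the acute phase, differed by −0.70 (SE 0.20).

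**Figure D3:**
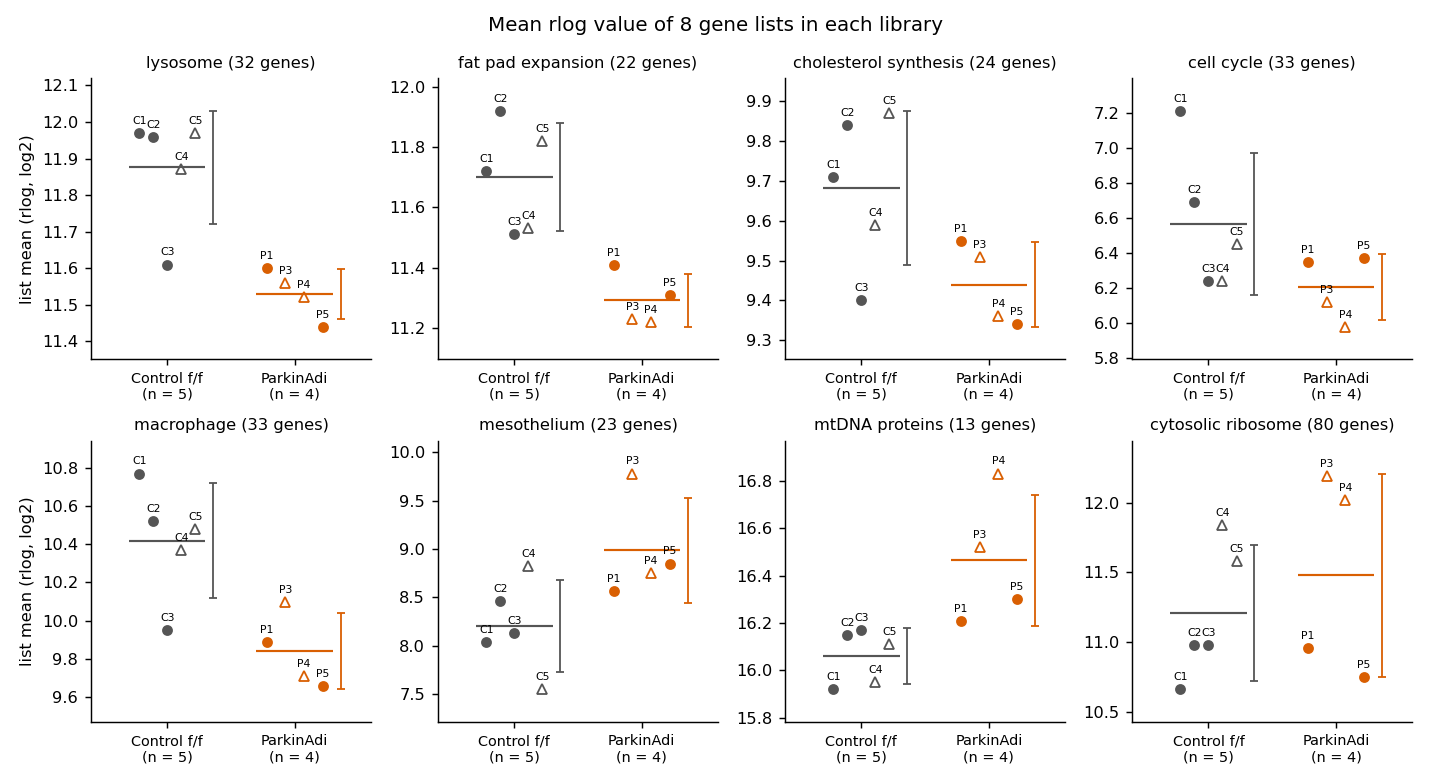
Mean rlog value (y axis, log2) of 8 gene lists in each labelled library by genotype (x axis); circles mark the positive and open triangles the negative library set, lines are group means and bars ± 1 SD. The lysosomal, fat pad expansion and mtDNA lists show no overlap of genotypes, C3 is the Control f/f mouse nearest to ParkinAdi for lysosome and cholesterol synthesis, and the cytosolic ribosome divides by library set.

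**Figure D4:**
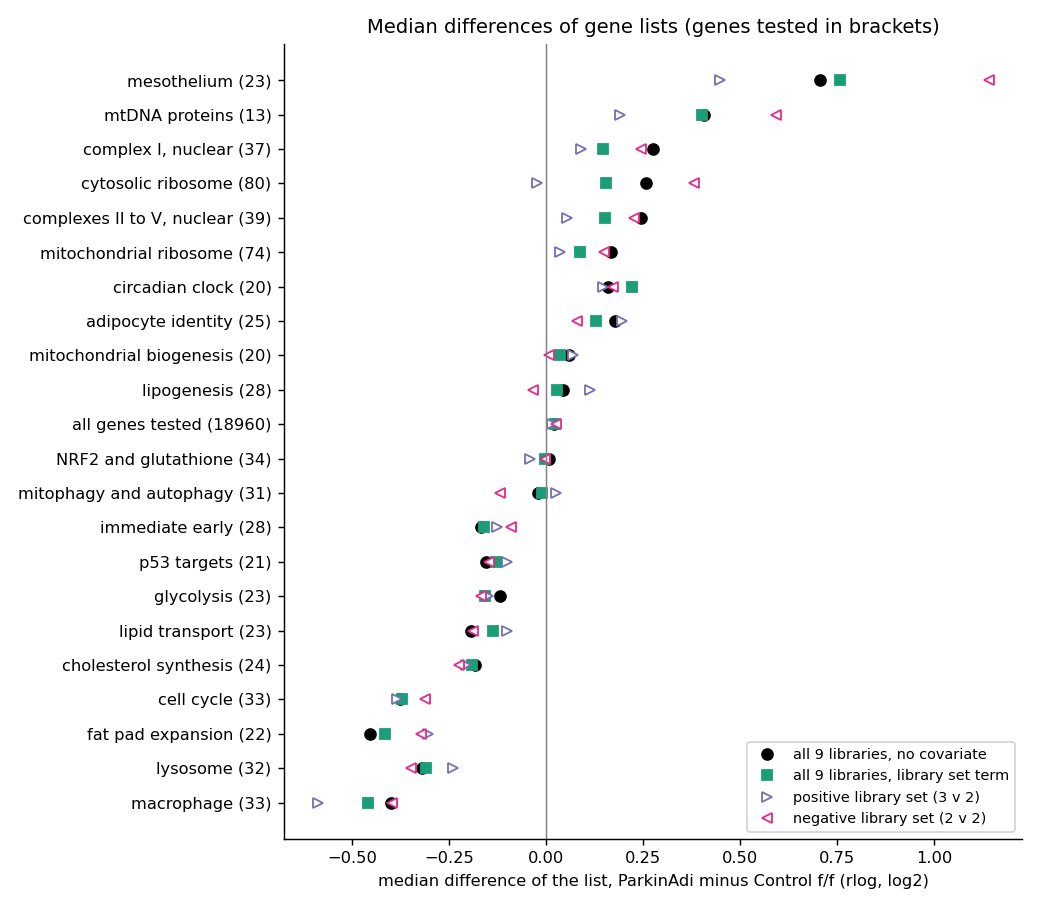
Median difference of each gene list (x axis, rlog, log2) over all 9 libraries with and without the library set term and within each set; the y axis names the list with the number of genes tested. Lysosome, fat pad expansion, cell cycle, cholesterol synthesis and macrophage lists lie below 0 in all 4 estimates, mesothelium and mtDNA proteins above 0, and the cytosolic ribosome lies at −0.02 in the positive set and 0.26 over all libraries.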

How the data were processed

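The authors prepared mRNA libraries of frozen eWAT in 2 pools, aligned and counted reads with Rsubread on GRCm38 and used DESeq2 1.30.0; the sources used here do not name the pool of each library. The authors deposited rlog values on the log2 scale per gene and library, used here as deposited; the rlog was presumably made over all 10 libraries, P2 included. Deposited tables of the authors' own comparisons (log2 fold changes, their errors and p-values) were not used. Columns carry animal numbers and a genotype but not the sample titles, so mice are named by genotype and column order, and the 9 columns were taken as separate animals. No 2 libraries held identical values (Pearson correlation 0.927 to 0.996).

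The comparison used limma (version 3.58.1, R 4.3.3; lmFit, then eBayes with an intensity trend, two-sided, Benjamini-Hochberg over all 18960 genes), without and with the library set. The fits were tested on simulated data. SE is limma's moderated standard error. Differences are ParkinAdi minus Control f/f; rlog shrinkage makes them smaller than fold changes from counts. Since the p-values set the difference between genotypes against the spread among mice within them, a value that misses the threshold does not show that genotypes are alike.

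The libraries, the 67 gene lists and the tests were chosen with earlier results of these data known, so lists are described by counts and medians only. Named genes were drawn from a rule: the 15 smallest p per direction and fit, up to 4 per list, genes the study names, up to 10 near each of 2 loci of the design, and Ces5a and Adam7; some genes are not reported here. F7, Ctsa, Ctsd, Atp6v1a, Mcoln1 and Atp6v0d1 lie outside it and were chosen after their values were seen. Annotation was GENCODE M21 (all 21756 IDs matched; 21 symbols read as dates by a spreadsheet took its names). Alternatives were no filter, a filter at 50, quantile normalization, centring on medians, limma with library weights, robust moderation or no trend, each library left out, P2 kept, each library set alone, other p thresholds and removal of the length trend. Tables were made with Python 3.11.15.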

Additional observations from a re-analysis of the deposited data

Results flagged for a closer look

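Over 93 named genes in both groups (186 combinations), 7 had a value far from the others by Dixon's criterion, where chance alone gives about 1 in 20. In Control f/f mouse C3, Vsig8 was at 5.11 where the 4 others of its group spanned 6.70 to 7.29, and Kcnk3, a potassium channel gene, at 9.39 against 9.86 to 10.05. In Control f/f mouse C5, Net1 was at 10.65 against 11.18 to 11.30 and Acta2 at 13.24 against 12.41 to 12.57. In Control f/f mouse C1, mt-Atp8 was at 11.68 against 10.59 to 10.78. In ParkinAdi mouse P1, Atp6v1b2 was at 11.84 against 11.64 to 11.65. In ParkinAdi mouse P4, Gpnmb, a glycoprotein of lipid-laden macrophages, was at 9.46 against 9.79 to 9.84.

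In the left-out ParkinAdi library P2, Ces5a was at 20.05 and Adam7 at 16.25, above the Control f/f ranges of 5.89 to 8.45 and 6.59 to 8.20; these 2 values chose the libraries.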

How the results depend on the processing

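With genotype alone, limma called 0 genes in each direction in every alternative but 2. The negative library set alone (2 against 2 mice) called 6 higher and 17 lower, and leaving out each mouse gave 0 to 0 higher and 0 to 4 lower, the 4 without C3. An unadjusted p under 0.05 gave 279 higher and 617 lower, and one under 0.01 gave 34 and 157. With the library set term, leaving out each mouse gave 0 to 97 higher and 0 to 365 lower, both maxima without C3, and an unadjusted p under 0.05 gave 912 and 1387. Over 93 named genes, 1931 of 1935 values under alternatives kept their sign; the 4 others were Ltf with P2 kept (0.50) and 3 of Nqo1 (−0.02 in the positive set, −0.04 without C1 and −0.05 without P4, the lowest of −0.05 to 0.17 over the mice left out). With genotype alone, an adjusted p under 0.05 from limma was reached among these genes by Vsig8 (−2.28), Mmp12 (−1.98) and Gpnmb (−2.25) without C3 and by Hist1h2al (2.33), Sfrp5 (−1.08), Mmp12 (−1.98) and Gpnmb (−1.99) in the negative set. With the set term, further named genes reached it without C3, among them Cd68, Dock8, Atf3, Hmox1 and Lipa. Of 441 medians of 21 lists under alternatives, 6 moved by more than 1 SD of the list mean; among these the epididymal list was at 1.19 with P2 kept. No paired analysis was possible because the columns carry animal numbers that pair no mice across genotypes. The depth is unknown, so the part of low counts could not be told from the values.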

Other observations

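Receptors, channels and matrix genes had values that belong to no comparison above. The oxytocin receptor gene Oxtr differed by −0.92 (SE 0.38) and the serotonin receptor gene Htr2b by −0.84 (SE 0.29). The 41 metabolic G protein-coupled receptors had a median of −0.003 (−0.03 without P4, 0.02 without P3). By an unadjusted p of under 0.05, 1 was higher and 5 lower, beside 1.47% and 3.25% of all genes. Kcnk3, an acid-sensitive potassium channel gene found in brown and beige adipocytes, differed by −0.49 (SE 0.17). Of 29 collagen genes, 18 were below 0 (median −0.17, −0.015 without C1 and −0.28 without P5), with Col6a2 at −0.73 (SE 0.31). Cyp26b1, which degrades retinoic acid, differed by 0.62 (SE 0.22).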
